A study of Mus musculus with 14 samples.

Results

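The expression landscape of normal frontal cortex at birth was read from 4 wild type libraries of mouse rostral cortex, which make up 4 of the 14 libraries in the series. They were taken as the 4 wild type columns of the frontal cortex table, and no column of a mutant was used. Each library is a polyA RNA preparation, made with an Illumina TruSeq kit, from the dissected rostral (frontal) cortex of C57BL6/J mice at postnatal day 0.5 with no treatment and no engineered allele named in the labels. The labels call the libraries biological replicates and do not say how many pups went into each, or their sex. The rest of the series, an Emx1-cre conditional knockout of Auts2 and an RNA immunoprecipitation from cortex, was not compared here. The exception is the pair of 10% input libraries of the immunoprecipitation, total RNA from C57BL6/J cortex of the same age with 2 pups pooled per library, which served to tell which genes listed at 0 were seen in another preparation.

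At birth the mouse cortex is near the end of making its excitatory neurons. Radial glia line the ventricle, divide into intermediate progenitors and neurons, and guide the migration of the neurons to the cortical plate, where layer 6 and layer 5 are built first and the upper layers last. Inhibitory interneurons arrive from the ganglionic eminences of the ventral forebrain, astrocytes and oligodendrocyte precursors have begun to appear, and few synapses are mature. Values here are FPKM, fragment numbers set relative to the length of the transcript and the size of the library, summed over the transcripts of each gene symbol, so that levels of different genes are compared per length. A series of 4 values gives libraries 1, 2, 3 and 4 in that order, and a mean ± SD is over those 4 libraries. With a single group no comparison between groups was made and no test was run, so every statement is a description of these libraries. The values carry no read counts, so sequencing depth and its counting error are unknown. In such bulk tissue, fewer cells of a type and less RNA per cell cannot be told apart.

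The tissue label was checked against markers of cortex and of its neighbours. Neurod6, a factor of pallial excitatory neurons, was listed at 383, 376, 349 and 357 FPKM and its relative Neurod2 at 125, 134, 105 and 105 FPKM. Both stood at high levels in all 4 libraries. None of the 10 midbrain and hindbrain genes reached 1 FPKM: Hoxa2, Hoxa5, Hoxb3, Hoxb5 and Hoxd3 were listed at 0 in all 4 libraries, and the highest was Th, for tyrosine hydroxylase, at 0.336 ± 0.181 FPKM, followed by En1 at 0.021 and En2 at 0.0037. Of the 8 hypothalamic genes none reached 1 FPKM either, with Pomc the highest at 0.384, then Agrp at 0.0971 and Pmch at 0.0717. All 8 choroid plexus genes were under 1 FPKM, and transthyretin (Ttr), which choroid plexus makes in great amounts, was listed at 0.0857, 0.633, 0.0459 and 0 FPKM. The highest choroid plexus genes were Aqp1, Kcne2 and Ttr, at means of 0.435, 0.279 and 0.191 FPKM. Of 6 thalamic genes, Slc17a6 at 13.4 and Prkcd at 12.4 were above 1 FPKM and are also expressed in cortex, whereas Tcf7l2, Lhx9 and Gbx2 had means of 0.809, 0.249 and 0.0449 FPKM.

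Striatal genes gave a mixed picture. Of 14 genes, 9 were at 1 FPKM or more and 4 at 10 FPKM or more, with a median of 1.97 FPKM. Meis2 at 139.9 ± 12.3 FPKM, Foxp1 at 34.2 ± 4.56 FPKM and Ppp1r1b at 31.6 ± 4.39 FPKM led the 14 genes, and cortical neurons express all of these. Genes closer to medium spiny neurons were low but measurable, with Drd1, the dopamine receptor of the direct pathway, at 4.63, 4.600, 3.97 and 3.24 FPKM and Adora2a, a receptor of the indirect pathway, at 1.04, 1.47, 1.29 and 1.695 FPKM. Isl1, a factor of striatal progenitors and direct-pathway neurons, was listed at 0.347, 0.139, 0.868 and 1.68 FPKM and Six3 at 0.179, 0.113, 0.394 and 0.778 FPKM. These last 2 were highest in library 4 and lowest in library 2, with a mean under 1 FPKM. How much tissue next to the cortex the dissections carried was not tested.

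**Figure D1:**
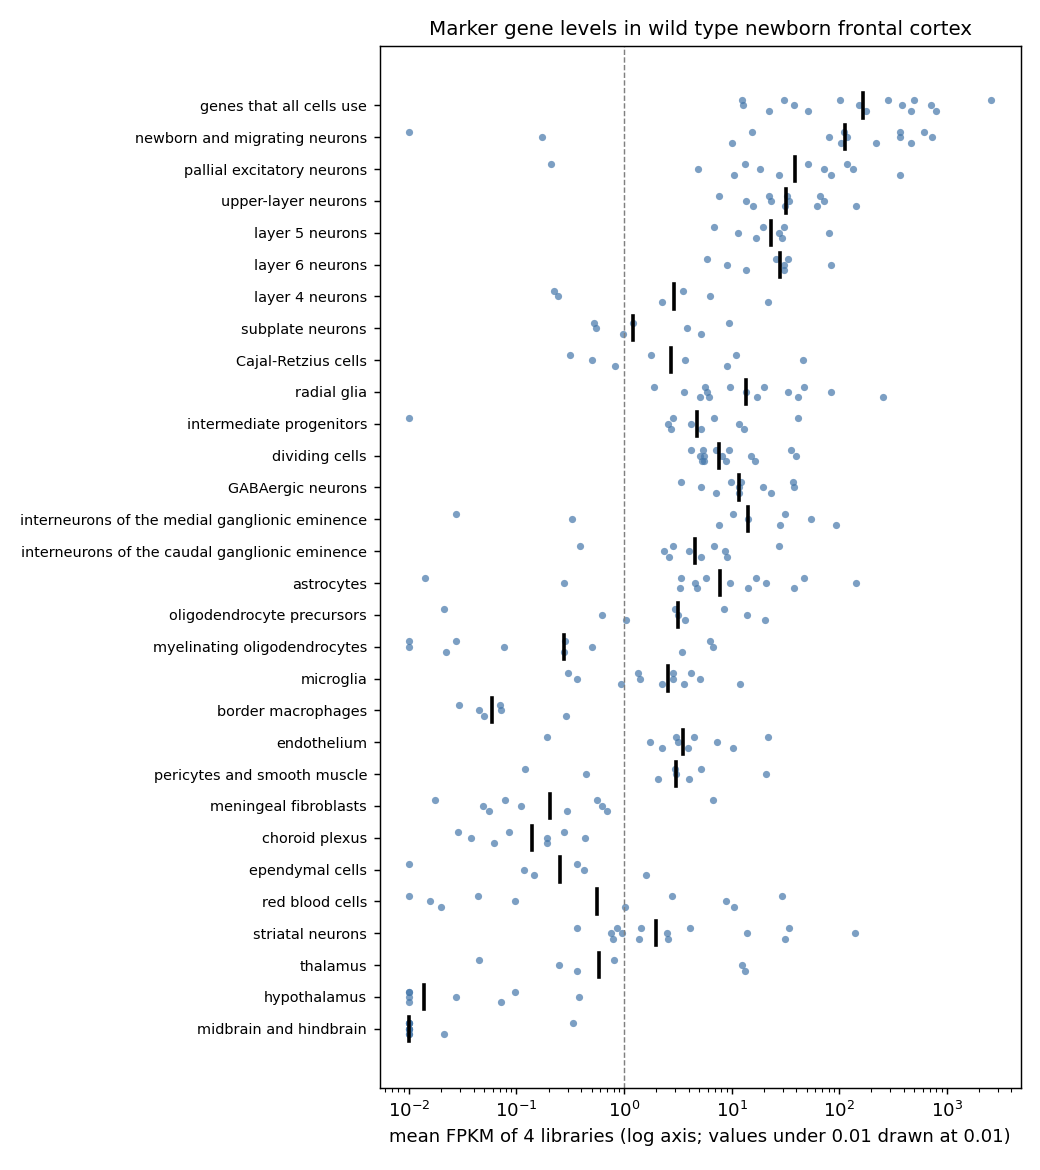
Each point is the mean FPKM over 4 libraries (log axis) of 1 marker gene, grouped by list in rows, with a black bar at the list median and a dashed line at 1 FPKM. Medians fall from 165 FPKM for genes that all cells use and 115 FPKM for newborn and migrating neurons to under 0.1 FPKM for hypothalamus and hindbrain.

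A mean of at least 1 FPKM was reached by 12799 gene symbols, of which 12193 were at or above 1 FPKM in every one of the 4 libraries. At 10 FPKM the number was 6892, at 100 FPKM 520 and at 500 FPKM 30. The median level of the 12799 genes was 11.4 FPKM. Protein-coding genes made up 11892 of them, long intergenic noncoding RNAs 201, antisense genes 115 and pseudogenes of all kinds 278, and protein-coding genes took 97.7% to 97.8% of the FPKM of each library. The 10 highest genes took 3.84%, 3.92%, 3.68% and 3.59% of the summed FPKM, the 100 highest 15.9%, 16.2%, 15.5% and 15.3%. The 520 genes at 100 FPKM or more held 35.5% of the total and the 6372 genes between 10 and 100 FPKM held 55.97%.

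The most abundant messages belonged to protein synthesis and to the growing cytoskeleton. Eef1a1, the elongation factor that brings transfer RNA to the ribosome (chr9:78478449-78489151, minus strand, GRCm38), was first at 2589, 2735, 2548 and 2539.8 FPKM. Tubb2b, a beta tubulin of migrating neurons (chr13:34126748-34130466, minus strand), followed at 1904, 2056, 1814 and 1781 FPKM, and Tmsb4x, thymosin beta 4, which binds actin monomers (chrX:167207093-167209315, minus strand), came next at 1447, 1493, 1298 and 1252 FPKM. In each library these genes kept this order, and the lowest value of each was above the highest of the next. Tubb5, another beta tubulin, followed at 1179 ± 71.2 FPKM, Stmn1, stathmin 1, which destabilises microtubules, at 1131 ± 55.9 FPKM, and Tmsb10, a second thymosin, at 1039 ± 75.6 FPKM. Tubb5 was above Stmn1 in each library, although their ranges overlapped.

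Ranks 7 to 20 held genes of the same kind. The actin-severing factor Cfl1 had 882 ± 46.5 FPKM, the imprinted gene Nnat 820.0 ± 79.2 FPKM, beta-actin (Actb) 796 ± 89.6 FPKM and the chaperone Hsp90ab1 796 ± 31.8 FPKM. The growth cone proteins Dpysl3 and Crmp1, both collapsin response mediators, stood at 761 and 693 FPKM, and stathmin 2 (Stmn2), a marker of growing axons, at 729 ± 31.2 FPKM. Marcksl1 at 725, the translation factor Eef2 at 712, Nrep at 705, calmodulin 2 (Calm2) at 697, the ribosomal protein Rplp1 at 652, the surface protein Cd24a at 619 and Tubb2a at 591 FPKM completed the list. Neighbours in ranks 7 to 20 mostly differed by less than their SD, so their order is loose. From the single highest transcript, Nnat stood at 455 FPKM and Nrep at 358 FPKM, well below their summed values. Among the 100 highest genes, 32 were cytosolic ribosomal proteins, 6 stathmins or collapsin response mediators, 4 translation factors, 4 thymosins or prothymosins, 3 tubulins, 3 hnRNPs and 2 14-3-3 proteins, and 2 were annotated as other than protein-coding. Ribosomal protein genes, taken by the form of their symbols, took 7.05%, 7.07%, 6.55% and 6.32% of the FPKM, lowest in libraries 3 and 4. The S6 kinase genes share that form of symbol and are included. Tubulins took 1.22%, 1.29%, 1.20% and 1.15%. Rpl13, Tuba1a and Tubb3, among the genes listed at 0 that are described below, add nothing to these counts and shares. Ribosomal protein, actin and tubulin genes have near-identical copies in the genome, so their levels depend on how fragments were divided among the copies.

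Promoters are shown for 3 genes whose levels differ widely, with each CG dinucleotide in capitals, because CG content differed between classes of genes by level. The windows run from 250 bases before to 50 bases after the start, 5′ to 3′ on the gene's strand, from RefSeq on GRCm38.p6. Eef1a1 is the most abundant gene (chr9:78481675-78481974, minus strand, 22 CG), Neurod6 an abundant neuronal gene (chr6:55681214-55681513, minus strand, 3 CG) and Hbb-bs the adult beta globin of red blood cells (chr7:103827879-103828178, minus strand, 2 CG).
Eef1a1: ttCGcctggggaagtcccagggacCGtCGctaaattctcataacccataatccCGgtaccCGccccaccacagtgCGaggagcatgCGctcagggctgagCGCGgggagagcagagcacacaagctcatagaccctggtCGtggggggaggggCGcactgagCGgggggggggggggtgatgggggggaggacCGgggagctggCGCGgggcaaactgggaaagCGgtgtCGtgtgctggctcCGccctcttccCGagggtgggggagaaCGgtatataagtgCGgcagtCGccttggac
Neurod6: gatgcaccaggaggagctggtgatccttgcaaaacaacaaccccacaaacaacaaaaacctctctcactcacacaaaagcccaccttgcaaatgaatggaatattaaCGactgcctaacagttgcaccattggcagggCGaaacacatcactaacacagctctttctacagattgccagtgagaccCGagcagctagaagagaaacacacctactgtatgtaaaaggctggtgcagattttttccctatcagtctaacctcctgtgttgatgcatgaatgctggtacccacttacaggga
Hbb-bs: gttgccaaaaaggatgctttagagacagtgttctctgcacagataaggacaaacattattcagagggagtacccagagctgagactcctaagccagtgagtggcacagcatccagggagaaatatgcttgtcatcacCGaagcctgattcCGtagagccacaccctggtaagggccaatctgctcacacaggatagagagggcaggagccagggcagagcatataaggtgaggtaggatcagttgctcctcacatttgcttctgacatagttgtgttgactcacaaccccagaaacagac

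Across the 13829 protein-coding genes with a single start in that table, the median number of CG dinucleotides per 300-base window was 2 in genes listed at 0 in all 4 libraries (3357 genes), 7 in those under 1 FPKM (3116), 20 from 1 to 10 FPKM (3168), 24 from 10 to 100 FPKM (3891) and 23 at 100 FPKM or more (297). The ratio of observed to expected CG rose with it, from a median of 0.14 to 0.84 between the lowest and the highest class, against 0.58 over all. Neurod6 was an exception: it was one of 6 genes at 100 FPKM or more with at most 5 CG in the window, beside Gng2, Adgrl2, B3gat1, Luc7l2 and one unnamed clone. Hbb-bs, at a mean of 29.6 FPKM with 2 CG, was also far below the median of 24 CG from 10 to 100 FPKM. The box TATAAA, searched on the gene's strand at 40 to 11 bases before the start, was held by 7.0% of windows in the class at 0, 0.62% from 10 to 100 FPKM and 3.37% at 100 FPKM or more, against 3.18% over all 13829. CAGATG, an E-box letter sequence read on both strands, fell from 21.6% in the class at 0 to 8.1% at 100 FPKM or more, against 14.6% over all. TGACGTCA, the palindromic cyclic AMP response element, went the other way, from 0.7% to 6.7% against 2.4% over all, while CCAAT on either strand stayed between 36.3% and 41.3% in every class. A match describes letters in the window and not a site. Base composition differs between the classes, and its part in these shares was not tested. Length did not run one way with level. The leading transcript had a median of 1040 bases in genes at 0, 2134 under 1 FPKM, 3078 from 1 to 10 FPKM, 3108 from 10 to 100 FPKM and 1984 at 100 FPKM or more, against 2299 over all 21844 protein-coding genes, and the gene spans had medians of 6.1, 17.1, 26.1, 27.9 and 13.2 kb. Both were longest from 10 to 100 FPKM. In genes at 0 all transcripts tie, so none leads by level. Their 1040 bases, which enter the 2299 over all, are not comparable with the other classes.

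Some neuronal genes that were abundant in the inputs were listed at 0 here. Tubb3, the beta tubulin widely used as a neuronal marker, was listed at 0 in all 4 libraries and at 289 and 277 FPKM in the input libraries. Tuba1a, the main alpha tubulin of young neurons (chr15:98949837-98953703, minus strand), was likewise at 0, and at 522 and 476 FPKM in the inputs. Its neighbour Tuba1b was not, at 89.5, 104, 118 and 100.1 FPKM. Of the 25957 symbols at 0 in all 4 libraries, 178 had at least 10 FPKM in both inputs, of which 74 were snoRNAs, 33 snRNAs and 22 other small RNA genes, and 37 were protein-coding, 9 of them histones. The input was total RNA and these libraries polyA RNA, and snoRNA, snRNA and most histone messages carry no polyA tail.

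The protein-coding genes at 0 were not scattered. Of 11549 protein-coding genes at 1 FPKM or more in both inputs, 82 were at 0 in all 4 wild type libraries, and 54 of them formed an unbroken run on chromosome 8 from Usp10 to Galnt2 (chr8:119910360-124345724, GRCm38), a span of 4.44 Mb. All 210 symbols annotated inside it, 74 of them protein-coding, were listed at 0. They include Tubb3 (chr8:123411424-123422015), the chromatin regulator Ankrd11 at 115 and 112 FPKM in the inputs, the cytochrome oxidase subunit Cox4i1 at 78.4 and 72.8, the amino acid transporter Slc7a5 at 36.5 and 32.7, and the autophagy gene Map1lc3b at 24.8 and 25.2. The genes that flank the run, Klhl36 at 2.86 ± 0.326 FPKM and Pgbd5 at 10.4 ± 1.26 FPKM, were measured, and none of the other 569 such genes on chromosome 8 was at 0. The run ends within 500 bases of the ends of a single annotated gene on the plus strand, Gm20388 (chr8:119910841-124345722), also at 0. Tuba1a in the same way lies almost wholly within Gm49450 (chr15:98932137-98953551), a gene on its own strand that was at 0 in the wild type libraries and at 309 and 274 FPKM in the inputs. Whether an overlapping gene model set these values to 0 was not tested. Genes of the 4.44 Mb span, Tuba1a and the 37 mitochondrial transcripts, none above 0.08 FPKM, are thus missing from the ranks above.

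**Figure D2:**
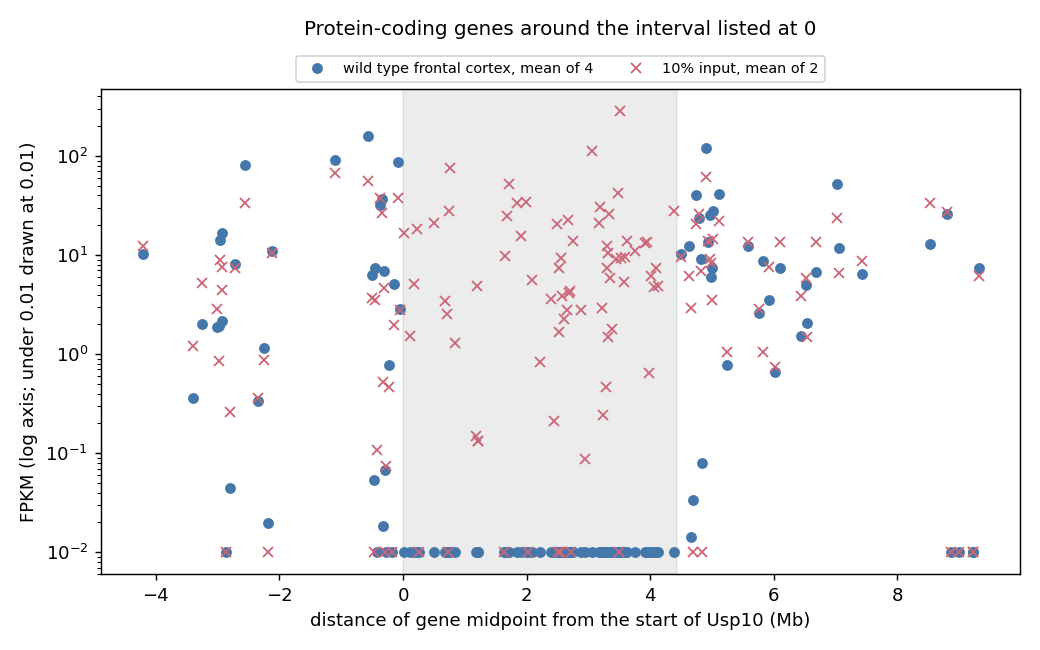
Protein-coding genes of chromosome 8 by distance of their midpoint from the start of Usp10 in Mb, with the mean FPKM of the 4 wild type libraries (circles) and of the 2 input libraries (crosses) on a log axis. Inside the grey band of 4.44 Mb every circle lies at the floor while crosses reach 283 FPKM, and the flanking genes Klhl36 and Pgbd5 lie above the floor. The tables were scaled separately, so the heights of circles and crosses are not compared.

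Genes of newborn and migrating neurons, a list not split into excitatory and inhibitory neurons, had the highest median of the cell type lists. Of 14 genes of newborn and migrating neurons, 12 reached 10 FPKM and 9 reached 100 FPKM, with a median of 115 FPKM. Beside Stmn2 and Cd24a, the growth cone protein Gap43 was listed at 431, 467, 494 and 459 FPKM and doublecortin (Dcx), the microtubule protein of migrating neurons, at 370.3, 364, 358 and 396 FPKM. The factors Sox4 and Sox11, which drive early neuronal genes, stood at 219.5 and 112 FPKM. The coefficient of variation (SD over mean) was 4.28% for Stmn2 and 4.46% for Dcx, below the median of 5.77% for genes at 100 FPKM or more, and 10.5% for Sox4, above it. Not seen at 1 FPKM were Tubb3, which lies in the interval described above, and Nhlh1, a factor of neurons that have just left the cycle, at 0.212, 0.269, 0.114 and 0.103 FPKM. Neurod1, which acts in intermediate progenitors and the youngest neurons, was far below its relatives, at 15.6 ± 1.74 FPKM against 117 for Neurod2 and 366 for Neurod6.

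Among pallial excitatory genes, 11 of 12 were at 1 FPKM or more and the median was 39.2 FPKM, with Neurod6 the highest. Neurod2, given above, was highest in library 2 and lower in libraries 3 and 4. The dorsal progenitor factors Emx1 and Emx2 stood lower, at 10.5 ± 1.72 FPKM and 4.91 ± 0.638 FPKM. Of the vesicular glutamate transporters, which load glutamate into synaptic vesicles, Slc17a7 (VGLUT1) was listed at 15.5, 13.5, 19.5 and 25.7 FPKM and Slc17a6 (VGLUT2) at 15.1, 15.2, 11.2 and 12.1 FPKM. Slc17a8 (VGLUT3) was under 1 FPKM in each library. VGLUT1 and VGLUT2 crossed: Slc17a7 was the higher in libraries 1, 3 and 4 and Slc17a6 in library 2.

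Layer markers were unevenly represented. All 8 genes of layer 6, all 8 of layer 5 and all 12 of the upper layers were at 1 FPKM or more, with medians of 28.5, 23.4 and 32.0 FPKM, whereas layer 4 had 4 of 6 with a median of 2.89 FPKM and the subplate, the transient layer beneath, 4 of 7 with a median of 1.21 FPKM. From the single highest transcript of each gene the medians of layer 6, layer 5 and the upper layers were 15.4, 23.2 and 23.4 FPKM. That of the subplate was 0.537 FPKM. The order of these medians thus depends on summing transcripts. In layer 6 the leading genes were Tbr1, the factor that specifies corticothalamic neurons, at 84.3, 84.9, 81.6 and 83.3 FPKM, Sox5 at 31.9, 36.7, 32.6 and 33.5 FPKM and Tle4 at 34.1, 34.2, 26.8 and 28.9 FPKM. Tbr1 varied by only 1.75% between libraries. Foxp2 was the lowest of the layer, at 5.86 ± 0.802 FPKM.

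Layer 5 was led by Ldb2 at 77.9, 81.4, 79.9 and 84.3 FPKM, Bcl11b (CTIP2), needed for corticospinal axons, at 30.4, 25.7, 30.8 and 35.9 FPKM and Pcp4 at 30.5, 27.95, 27.3 and 31.1 FPKM. Fezf2, the selector of subcortical projection neurons, was at 27.4 ± 2.498 FPKM, and Etv1 and Otx1 at 11.4 and 6.86 FPKM. Bcl11b and Fezf2 ran in opposite directions across the libraries, Bcl11b highest in library 4 where Fezf2 was lowest. Upper-layer and callosal genes were led by Lmo4 at 133, 129, 158 and 153 FPKM, and Pou3f3 (BRN1) was at 70.9, 75.3, 56.9 and 60.2 FPKM. Cux1 at 62.95 stood above Cux2 at 31.4 FPKM in every library. Dkk3 and Mdga1 differed most between libraries in this list, with Mdga1 at 15.9, 15.1, 12.5 and 10.8 FPKM.

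In layer 4, the layer that receives thalamic input, Tox was at 21.7 ± 0.578 FPKM, Rorb, its best known factor, at 7.37, 6.56, 5.85 and 5.64 FPKM and Thsd7a at 3.303, 1.98, 3.64 and 5.15 FPKM. Scnn1a and Rspo1, which mark mature layer 4 cells, were under 1 FPKM. The frontal cortex of rodents has a thin layer 4. In the subplate, Nr4a2 (NURR1) was listed at 8.54, 8.95, 8.03 and 12.4 FPKM, Nxph4 at 4.89, 7.11, 4.68 and 4.26 FPKM and Tmem163 at 3.87 ± 0.3 FPKM, while Cplx3 was under 1 FPKM in each library. The subplate gene Ctgf is listed under its newer symbol Ccn2, at a mean of 5.01 FPKM. It was left out of the subplate count and median given above. Cajal-Retzius cells, the first neurons of the marginal zone, were represented by Reln (reelin) at 47.6, 49.2, 45.95 and 43.2 FPKM, Cacna2d2 at 10.9 ± 0.846 FPKM and Calb2 at 9.01 ± 2.54 FPKM. Interneurons express these too. The more restricted Trp73 was at 1.77 ± 0.111 FPKM, and Lhx5 and Lhx1 had means of 0.509 and 0.315 FPKM.

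The 16 factors that pattern cortical areas were all at 1 FPKM or more, led by Id2 at 219.8, 243, 151 and 159 FPKM, with Lmo4 and Tbr1 next. Id2 was higher in libraries 1 and 2 than in 3 and 4. Nr2f1 (COUP-TFI), high in caudal cortex, was at 17.9, 22.4, 22.02 and 25.3 FPKM, Etv5, induced rostrally by FGF signals, at 18.4 ± 2.03 FPKM, Sp8, a rostral factor of progenitors, at 2.85 ± 0.758 FPKM and Pax6 at 9.75 ± 1.91 FPKM. No caudal cortex was measured, so a position along this axis cannot be read from these values.

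Progenitors remained measurable below the neurons. All 15 radial glia genes were at 1 FPKM or more, 8 of them at 10 or more, with a median of 13.7 FPKM. Fabp7, the brain lipid-binding protein of radial glia, led at 225, 228, 272 and 297 FPKM, followed by the phosphatase Ptprz1 at 76.03, 72.9, 89.7 and 101 FPKM and the glutamate transporter Slc1a3 at 41.7, 39.9, 54.2 and 52.2 FPKM. These 3, all kept by astrocytes, were each lower in libraries 1 and 2 than in 3 and 4. Among genes more tied to the ventricular zone, 3 did not share that order. Nes (nestin) was listed at 16.4, 17.6, 17.3 and 17.4 FPKM, Sox2 at 21.7, 18.2, 19.95 and 20.1 FPKM and Pax6 at 12.5, 9.098, 9.21 and 8.16 FPKM. The Notch target Hes5 did share it, at 4.06, 3.72, 7.78 and 4.75 FPKM. Hes5 was higher than Hes1, at 1.89 ± 0.443 FPKM, in every library. Of the 15 genes, 5 were higher in both libraries 3 and 4, and 1 in both libraries 1 and 2. Over all 12799 genes at 1 FPKM or more these shares were 29.4% and 30.9%, so the 5 of 15 is near the share of all genes.

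Intermediate progenitor genes had a median of 4.73 FPKM, with 9 of 10 at 1 FPKM or more. The highest were Hes6 at 42.9, 50.02, 40.03 and 33.4 FPKM, the somatostatin receptor Sstr2 at 15.1, 19.3, 9.65 and 7.74 FPKM and Insm1, which promotes their delamination, at 11.3, 12.6, 11.6 and 11.4 FPKM. Eomes (TBR2), the defining factor of these cells, was listed at 9.32, 8.39, 5.13 and 4.85 FPKM. Eomes and Sstr2 were both higher in libraries 1 and 2, while Insm1 differed little. Neurog2 stood at 2.83 ± 0.372 FPKM, and its relative Neurog1 at 0 in 3 libraries and 0.0332 FPKM in library 2. Dividing cells were present: all 14 cell cycle genes were at 1 FPKM or more, with a median of 7.69 FPKM, led by Pcna, the replication clamp, at 40.7, 37.1, 42.2 and 40.5 FPKM, Ccnd2, a cyclin of cortical progenitors, at 31.3, 30.7, 39.96 and 39.6 FPKM and Rrm2 at 15.8, 16.3, 16.5 and 16.8 FPKM. The proliferation marker Mki67 was at 5.94, 5.82, 4.402 and 6.12 FPKM, lowest in library 3. Dcx was thus 66.8-fold and 53.7-fold the level of Mki67 and Eomes in ratios of means.

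Inhibitory neurons were represented by all 11 general GABAergic genes, with a median of 11.8 FPKM. Dlx1, a factor of ventral forebrain neurons, was listed at 41.4, 35.05, 36.1 and 35.6 FPKM and the GABA-making enzyme Gad1 at 22.8, 17.5, 26.9 and 26.5 FPKM. Gad2, the second enzyme, was lower at 9.85 ± 0.964 FPKM. Library 2 was lowest in Dlx1, Gad1, Gad2, the vesicular transporter Slc32a1 and Dlx5. Interneurons from the medial ganglionic eminence were led by Npy, neuropeptide Y, at 90.4, 114, 85.3 and 85.4 FPKM, Sst, somatostatin, at 53.4, 42.5, 55.9 and 67.4 FPKM and Satb1 at 32.5, 31.4, 29.8 and 30.9 FPKM. Their factor Lhx6 was steady at 27.5, 28.7, 29.5 and 27.8 FPKM, while Nkx2-1, which cortical interneurons switch off on their way, was under 1 FPKM. Parvalbumin (Pvalb), which appears weeks after birth, was at 0.110 FPKM in library 1 and listed at 0 in the other three.

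Genes of the caudal ganglionic eminence were lower, with a median of 4.61 FPKM against 14.1 FPKM for the medial list, or 2.95 and 9.60 FPKM from the single highest transcripts. Cck, a peptide that excitatory neurons make as well, led at 28.4, 30.7, 24.3 and 26.3 FPKM, followed by Calb2 at 12.7, 7.86, 8.404 and 7.07 FPKM and Npas1 at 7.597, 9.27, 9.25 and 8.69 FPKM. The serotonin receptor Htr3a, which marks the class, was at 3.95, 4.196, 4.13 and 3.78 FPKM and Prox1 at 2.36 ± 0.311 FPKM. Vip was under 1 FPKM in every library. Sst thus stood 141-fold above Vip in means and 13.7-fold above Htr3a.

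Glial markers ran from abundant to near 0. Of 14 astrocyte genes, 12 were at 1 FPKM or more, with a median of 7.74 FPKM. Sparcl1 (hevin), also made by neurons, led at 137, 127, 149 and 157 FPKM, followed by Slc1a3, given above, and Aldoc at 36.01, 39.02, 39.5 and 37.5 FPKM. Aldh1l1 was at 16.7 ± 1.35 FPKM and Gfap at 5.81 ± 0.745 FPKM. Genes of mature astrocytes were among those lower in libraries 1 and 2: the glutamate transporter Slc1a2 (GLT-1) was listed at 13.1, 10.7, 16.3 and 16.7 FPKM and the water channel Aqp4 at 2.38, 2.398, 4.04 and 4.68 FPKM. Slc1a3 was 3.31-fold above Slc1a2 in means. S100b was at 0.274 ± 0.152 FPKM.

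Oligodendrocyte precursors were led by Olig1 at 15.02, 18.9, 26.4 and 22.4 FPKM, the growth factor receptor Pdgfra at 12.6, 14.3, 15.5 and 13.8 FPKM and Olig2 at 7.499, 7.04, 10.4 and 9.28 FPKM, with 7 of 9 genes at 1 FPKM or more. Myelin genes were low, and 3 of 11 reached 1 FPKM, with Mbp the highest at 6.65 ± 0.749 FPKM, then Cnp at 6.34 ± 1.45 FPKM. The myelin gene Mog was at 0 in all 4 libraries, and Mag, Myrf, Mobp and Opalin had means under 1 FPKM. By transcript, most of the level of Mbp lay outside the myelin forms. Transcripts that start at the far upstream golli start, used in neurons and immune cells, were summed at 5.11, 6.43, 6.56 and 7.09 FPKM, or 94.6% of the gene, and those that start at later positions, which include the myelin forms, at 0.596, 0.002, 0.83 and 0 FPKM. This split was looked at after the gene's level was seen.

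Microglia were detected with 9 of 12 genes at 1 FPKM or more and a median of 2.55 FPKM. C1qb, a complement subunit, was listed at 3.94, 4.71, 5.87 and 5.72 FPKM and C1qc at 3.13, 3.99, 4.89 and 4.89 FPKM, each lower in libraries 1 and 2. P2ry12 was at 1.35 ± 0.445 FPKM and Tmem119, a marker of mature microglia, at 0.299 ± 0.105 FPKM. Border macrophages were near the limit: all 6 genes were under 1 FPKM, with Mrc1 at 0.29, Lyve1 at 0.0714 and Pf4 at 0.0697 FPKM.

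Vessels were detected, with less spread in endothelial genes than in pericyte and smooth muscle genes. Among genes at 1 FPKM or more, the median coefficient of variation was 6.3% in the first list and 14.2% in the second. It was 10.2% over all genes at 1 FPKM or more and 14.4% over those from 1 to 10 FPKM. In the 2 lists, 6 of 9 endothelial and 5 of 6 pericyte and smooth muscle genes split libraries 1 and 2 from 3 and 4. The share over all genes at 1 FPKM or more was 60.3%. Of 10 endothelial genes 9 were at 1 FPKM or more, led by the tight junction protein Cldn5 at 20.9, 21.3, 23.05 and 21.9 FPKM, the glucose transporter Slc2a1 at 11.97, 11.2, 8.55 and 9.19 FPKM and Esam at 7.99, 7.98, 6.29 and 7.33 FPKM. Rgs5, Vtn and Pdgfrb led the pericyte genes at 20.98, 5.21 and 4.05 FPKM, and the smooth muscle actin Acta2 had 0.121 ± 0.0287 FPKM. Meningeal fibroblast genes were under 1 FPKM except Igf2 at 6.71 ± 0.469 FPKM, which vessels also make, and Col1a2 and Col3a1 followed at 0.694 and 0.625 FPKM. Blood left in the tissue was visible through the globins, Hbb-bs at 28.4, 29.7, 32.3 and 28.3 FPKM, Hba-a1 at 9.91, 12.6, 10.7 and 8.67 FPKM and Hbb-bt at 6.54, 10.3, 8.92 and 10.1 FPKM. The embryonic globins Hbb-y and Hba-x were at most 0.0799 FPKM in any library and Hbb-bh1 was at 0. A transcript annotated as a retained intron held 80.9% of the Hba-a1 level, at a mean of 8.46 FPKM. The pairs Hba-a1 and Hba-a2, and Hbb-bs and Hbb-bt, are near-identical copies whose fragments can be divided between them. Of 6 ependymal genes only Foxj1 was above 1 FPKM, at 1.39, 1.43, 1.81 and 1.74 FPKM, with Rsph1 and Dynlrb2 at 0.425 and 0.362 FPKM.

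Synaptic genes were already abundant. All 17 presynaptic genes were at 10 FPKM or more, with a median of 60.2 FPKM, and 18 of 20 postsynaptic genes were, with a median of 32.0 FPKM (19.8 FPKM from the single highest transcripts). The vesicle proteins and their partners led the first list, Vamp2 at 190.4, 187, 185 and 186 FPKM, Cplx2 at 132, 145, 127 and 125 FPKM and Snap25 at 128, 116, 113 and 132 FPKM. Vamp2 varied by 1.29% between libraries. The calcium sensor of release Syt1 was listed at 59.5, 63.2, 85.1 and 92.1 FPKM and the active zone proteins Rims1 and Pclo at 26.7, 24.6, 34.5 and 33.96 and 15.2, 15.03, 19.5 and 20.1 FPKM. These 3 were each lower in libraries 1 and 2, while Sv2a, at 60.2 FPKM, varied by under 3%.

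On the receiving side, Camk2b was listed at 162, 179, 173 and 162 FPKM, the AMPA receptor subunit Gria2 at 151, 150.0, 124 and 180.3 FPKM and the scaffold Dlg4 (PSD-95) at 105, 114, 109 and 106 FPKM. The Gria2 total includes transcripts annotated as retained introns: its protein-coding transcripts alone came to 62.1, 57.3, 56.8 and 84.2 FPKM. The obligatory NMDA receptor subunit Grin1 was at 28.9 ± 1.36 FPKM. The activity-dependent gene Arc was at 0.325 ± 0.0997 FPKM, the lowest of the list.

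The 14 gene pairs compare a partner used early in development with a relative that replaces or joins it later. The early partner was the higher in all 4 libraries in 9 of the 14 pairs, the late one in all 4 in 3, and the libraries were split in 2. Ratios are log2 of (FPKM + 1) over (FPKM + 1), which understates low genes. For the NMDA receptor subunits, whose ratio shifts as synapses mature, Grin2b over Grin2a stood at 3.57, 3.57, 4.14 and 4.17. The embryonic glycine receptor subunit Glra2 exceeded the adult Glra1 by 5.08, 4.95, 5.43 and 5.26, the matrix proteoglycan Vcan exceeded Acan of perineuronal nets by 4.71, 4.64, 5.11 and 5.37, and the light neurofilament Nefl exceeded the heavy Nefh by 3.70, 4.20, 3.88 and 4.03. In these 4 pairs the late partner had a mean of 1.37 FPKM or less. Camk2b exceeded Camk2a by a mean of 3.47 ± 0.34 (SD, n = 4), Tubb2b exceeded Tubb4a by 3.58 ± 0.06, Dcx exceeded Rbfox3 (NeuN) by 3.07 ± 0.20 and Ncan exceeded Bcan by 1.84 ± 0.15.

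Other pairs stood near balance or leaned to the late partner. The chloride transporters, whose change turns GABA from depolarising to inhibitory, were near even, with the importer Slc12a2 (NKCC1) at 11.3, 10.7, 9.47 and 10.05 FPKM and the exporter Slc12a5 (KCC2) at 12.5, 11.1, 14.97 and 15.5 FPKM. The log2 ratio was -0.13, -0.05, -0.61 and -0.58, so the exporter was the higher in all 4. Taken from the single highest transcript of each gene, the ratio had a mean of 0.70, the opposite sign. Map1b and Map2, at 289, 324, 353 and 349 and 368, 368, 461 and 489.6 FPKM, gave a mean of -0.35 ± 0.13 (SD, n = 4), and 0.68 from the single highest transcript. Dlg3 over Dlg4 was the one pair far on the late side, at -1.95 ± 0.07. The sodium channels Scn3a and Scn8a gave 0.42 ± 0.16. The transporter pair Slc17a6 over Slc17a7 was -0.04, 0.16, -0.75 and -1.03, furthest towards the mature VGLUT1 in libraries 3 and 4. Hapln1 and Hapln4 were both under 1 FPKM and their ratio says little.

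**Figure D3:**
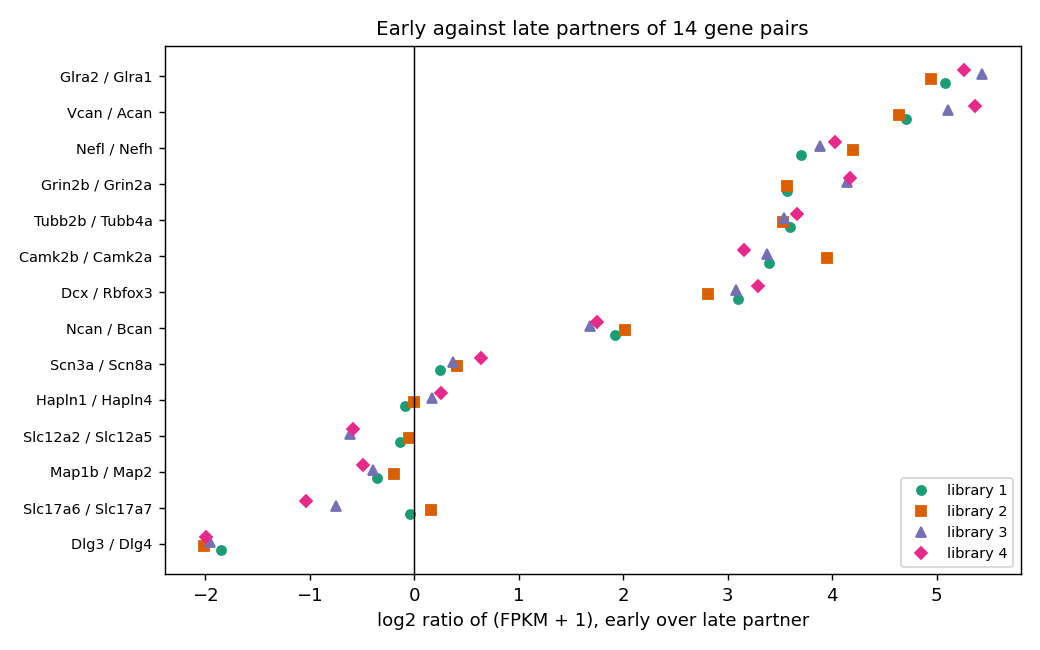
Each row is a gene pair, and each symbol the log2 ratio of (FPKM + 1) of the early over the late partner in 1 library. In the plot 9 pairs lie wholly to the right of 0, Dlg3 over Dlg4 lies near -2, and Slc17a6 over Slc17a7 spans 0.16 to -1.03.

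Receptors for GABA were all represented. All 12 GABA-A subunits were at 1 FPKM or more, with Gabra5 at 39.8, 42.1, 38.3 and 41.7 FPKM among the highest. Gabra5 and Gabra3 (30.7) were the highest alpha subunits, above Gabra2 and Gabra4, and the extrasynaptic Gabrd was at 1.48 ± 0.227 FPKM. Matrix genes differed widely in level. Ncan at 79.8, 86.8, 92.7 and 90.98 FPKM, Vcan at 34.6, 33.4, 42.98 and 51.9 FPKM and Tnc at 31.8, 31.9, 35.00 and 35.9 FPKM were high, with Tnr and Bcan above 20 FPKM. In contrast, Acan, Hapln1, Hapln2 and Hapln4 were all under 1 FPKM.

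Neurotrophin signalling was uneven between ligands and receptors. The receptor Ntrk2 (TrkB) was listed at 48.9, 50.1, 55.7 and 52.9 FPKM and Ntrk3 (TrkC) at 22.6, 24.5, 23.5 and 24.4 FPKM. Of the ligands only Ntf3, the ligand of Ntrk3, reached 1 FPKM, at 12.7, 12.8, 8.42 and 7.36 FPKM, higher in libraries 1 and 2. Bdnf, the ligand of Ntrk2, which activity induces, was at 0.416, 0.25, 0.35 and 0.408 FPKM. Among peptide precursors, Npy, Sst and the granin Chga (36.6) were the highest, Cck was at 27.4 and Adcyap1 at 4.51 FPKM, and Crh had 0.291 ± 0.126 FPKM.

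Immediate early genes, which respond to activity and handling, were low. Of 11 immediate early genes 8 reached a mean of 1 FPKM and none a mean of 10 FPKM, with Jun at 7.96, 9.79, 10.1 and 9.93, Dusp1 at 7.500, 6.58, 6.03 and 7.21 and Egr1 at 5.31, 3.403, 5.71 and 5.73 FPKM the highest, and Fos at 1.26 ± 0.288 FPKM. The heat shock genes Hspa1a and Hspa1b, which rise in stressed tissue, had means of 0.103 and 0.144 FPKM. Other genes of the hypoxia and heat shock list were not low: 5 of its 11 genes reached 10 FPKM and the median was 7.13 FPKM. Hsph1, Ddit4 and Vegfa led at 50.5, 34.3 and 26.2 FPKM.

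The libraries were close to each other, more so in some pairs. Over the 12799 genes, Pearson's r of log2(FPKM + 1) was 0.9931 between libraries 1 and 2 and 0.9942 between 3 and 4, and 0.9844 to 0.9866 in the other 4 pairs. These correlations run across genes of whole libraries and are descriptions only. The first principal component held 63.8% of the variation between libraries, with scores of 0.45 and 0.55 for libraries 1 and 2 and -0.49 and -0.51 for 3 and 4, and the second 21.1%. In 7718 of the 12799 genes, or 60.3%, libraries 1 and 2 lay both above (3955) or both below (3763) libraries 3 and 4. The labels name no batch, litter or dissection that would separate them, and the cause was not tested. The summed FPKM per library was 331957, 338794, 332830 and 330638, and median-ratio scaling factors were 0.999 to 1.003.

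The mean log2 level of whole lists moved between libraries to different degrees. The range was widest for the sex-linked list, at 1.97, 2.89, 1.96 and 1.92. Ependymal genes stood at 0.28, 0.30, 0.66 and 0.50. Of 16 genes that all cells use, 13 split libraries 1 and 2 from 3 and 4, against 60.3% of all genes at 1 FPKM or more. The median of these 16 was 176, 191, 150 and 144 FPKM. Newborn neuron genes stood at 6.22, 6.28, 6.16 and 6.17, intermediate progenitor genes at 2.73, 2.78, 2.58 and 2.47, and dividing cell genes at 3.34, 3.35, 3.40 and 3.40. Astrocyte genes were at 3.16, 3.13, 3.48 and 3.43 and microglia genes at 1.57, 1.60, 1.90 and 1.79. Presynaptic genes were at 5.70, 5.73, 5.85 and 5.87, postsynaptic ones at 4.85, 4.86, 4.98 and 5.01 and GABA-A subunits at 3.52, 3.42, 3.62 and 3.77. Libraries 3 and 4 thus had the higher values of astrocyte, microglia and synaptic lists and the lower values of intermediate progenitors, and GABAergic genes (3.82, 3.58, 3.83 and 3.92) were lowest in library 2.

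**Figure D4:**
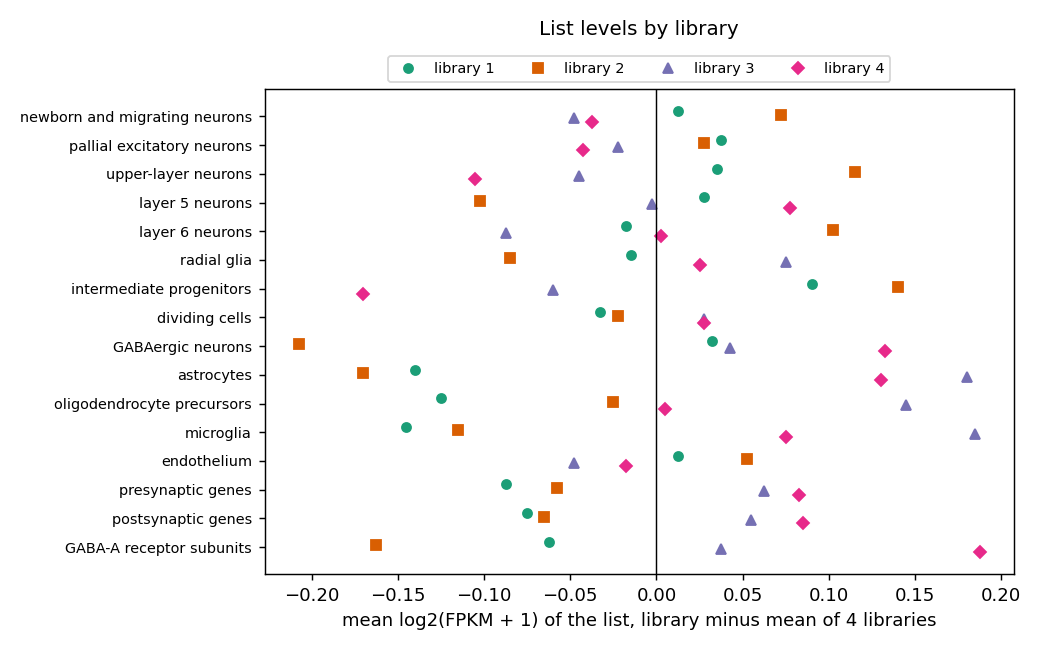
Each row is a gene list, and each symbol the mean log2(FPKM + 1) of its members in 1 library minus the mean of the 4 libraries. Libraries 3 and 4 lie to the right of libraries 1 and 2 for astrocyte, microglia and synaptic genes and to the left for intermediate progenitors.

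Spread fell with level. The median coefficient of variation was 10.2% over the 12799 genes, and was 14.4% in genes from 1 to 10 FPKM, 7.86% from 10 to 100 FPKM and 5.77% at 100 FPKM or more. Only 73 of the 12799 exceeded 50%. The least variable genes above 50 FPKM were Mff, a mitochondrial fission factor, at 139, 139, 139 and 139.7 FPKM (0.307%), Ndufa4, a respiratory chain protein, at 199.6, 199, 199 and 198 FPKM (0.381%) and Pfn2, the neuronal profilin, at 175, 177, 176 and 176 FPKM (0.436%). Scamp5, Hnrnpk, Bex2, Atp2a2, Ywhae, Cox6c and Pja1 followed, at 0.487% to 0.766%. Genes often used as references varied more, with Actb at 11.3%, Gapdh at 12.3%, Ubb at 22.8% and Ywhaz at 3.67%. Being picked as the smallest of many, the leading values may be lower than in further libraries.

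**Figure D5:**
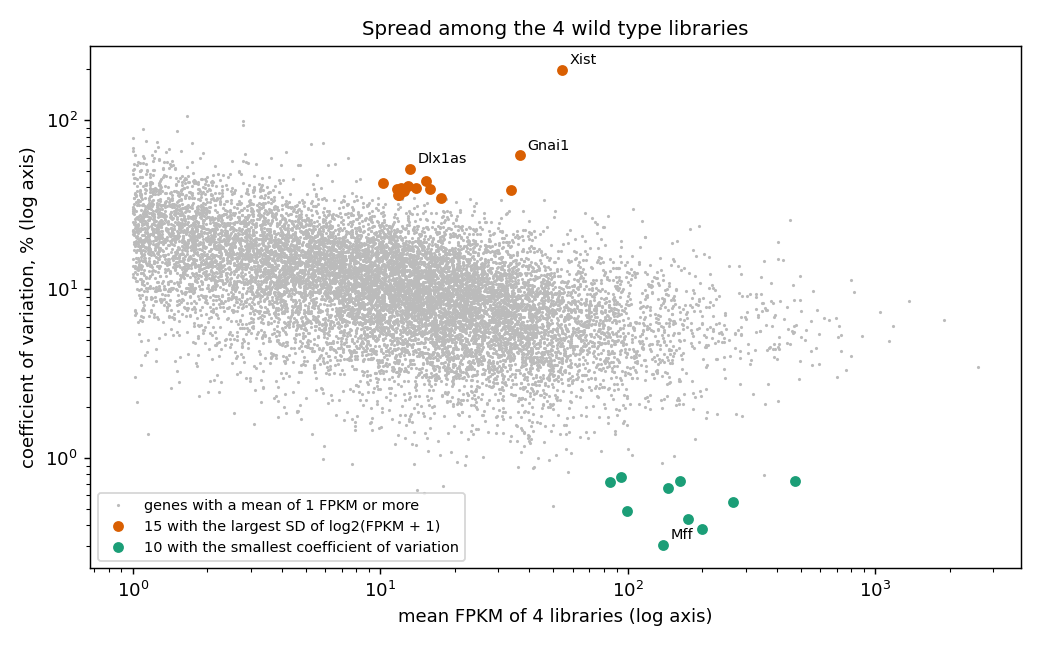
Coefficient of variation over the 4 libraries in percent against mean FPKM, both on log axes, for the 12799 genes at 1 FPKM or more. The cloud falls from a median of 14.4% below 10 FPKM to 5.77% above 100 FPKM, with Xist and Gnai1 highest among the named variable genes and Mff lowest.

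The most variable gene at 10 FPKM or more was Xist, the RNA that silences one X chromosome in female cells, at 0.097, 217, 0.397 and 0.0854 FPKM, high in library 2 alone. The 4 other X-linked genes of the list were also highest there: Ddx3x was listed at 172, 194, 129 and 137 FPKM, Eif2s3x at 30.9, 45.9, 27.8 and 25.6 FPKM, Kdm5c at 18.2, 23.6, 18.8 and 17.8 FPKM and Kdm6a at 6.06, 9.12, 6.52 and 6.88 FPKM. The Y-linked genes Ddx3y, Eif2s3y and Uty were at 0 in all 4 libraries and Kdm5d was at most 0.0573 FPKM. Libraries 1, 3 and 4 therefore show neither Xist nor any of these 4 Y-linked genes at 1 FPKM. None of the 2243 transcripts on the Y chromosome exceeded 1.14 FPKM, and these 4 Y-linked genes were also at 0 in both inputs. Whether the Y chromosome could receive reads in the authors' alignment was not tested.

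Gnai1, an inhibitory G protein subunit, came next at 55.6, 52.7, 6.001 and 32.7 FPKM, with library 3 far below the rest. The antisense gene Dlx1as was listed at 7.64, 7.003, 19.8 and 18.4 FPKM and Dlx6os1 at 8.65, 7.197, 14.02 and 16.9 FPKM, both higher in libraries 3 and 4, while the coding partners Dlx1 and Dlx6 (4.64, 2.71, 2.78 and 3.53 FPKM) were not. Whether counting used strand is not stated, and reads of overlapping partners may not be told apart. Jup, plakoglobin, was at 9.03, 10.1, 21.2 and 21.1 FPKM, the channel Trpv2 at 5.09, 8.21, 13.7 and 13.9 FPKM, the small nucleolar RNA host gene Snhg11 at 28.4, 18.6, 38.9 and 48.6 FPKM, Dmtn at 9.82, 11.3, 21.8 and 20.6 FPKM and Triobp at 11.1, 13.99, 24.5 and 20.8 FPKM. All these were higher in libraries 3 and 4.

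Fibronectin (Fn1) ran the other way, at 17.3, 19.9, 8.43 and 10.02 FPKM, as did Sstr2, Lrif1 at 16.5, 15.97, 6.95 and 9.03 FPKM, Trmt9b at 17.3, 15.8, 8.36 and 8.41 FPKM and the hedgehog co-receptor Cdon at 15.1, 15.99, 8.18 and 8.13 FPKM. Nrp2, a semaphorin receptor, was low in library 2 alone, at 15.9, 5.78, 12.98 and 12.6 FPKM. Libraries 1 and 2 lay on one side of libraries 3 and 4 in 13 of these 15 genes, against 60.3% of all genes. Since the 15 were chosen for their spread, this is a description of that spread. The single highest transcript alone put 8 of the 15 under the 10 FPKM they were chosen at, with Trpv2 at 4.16, Nrp2 at 5.04, Lrif1 at 5.12, Fn1 at 5.30, Trmt9b at 5.85, Dlx6os1 at 7.18, Cdon at 7.82 and Triobp at 9.31 FPKM. Protein-coding transcripts only gave 5.59 FPKM for Trpv2, 6.88 for Lrif1 and 8.56 for Fn1.

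Most abundant genes were read from the same transcript in every library. Of 6784 protein-coding genes at 10 FPKM or more, the transcript with the highest FPKM was the same in all 4 libraries in 6135, or 90.4%, and it held a median of 78.5% of the gene's FPKM. A median of 2 transcripts per gene reached 1 FPKM. In 283 genes, or 4.2%, the leading transcript was not annotated as protein-coding, a retained intron in 104 of them. Among the 167 list genes at 10 FPKM or more this held for 2, Gria2 and Hba-a1, and the other 165 were led by coding transcripts.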

How the data were processed

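The 4 wild type frontal cortex columns were analysed, and 10 per-sample columns of the deposited tables, of the knockout, the immunoprecipitations and the IgG control, were not used. The authors deposited FPKM per transcript of GENCODE vM14, per the file headers. Alignment and estimation tools in the submitters' processing notes are Cuffdiff 2.2.1, STAR 2.5 and SAMtools, on GRCm38.p4 (mm10). How the values were filtered and scaled, and whether strand was used, is not stated, and the frontal cortex and input tables were scaled separately, so levels are not compared between them. An exact 0 can be a failed estimate. Of 128508 transcripts, 127975 matched GENCODE vM21, which gave symbols and coordinates, and carried 99.74% to 99.75% of each library's FPKM. The 25 rows that repeat a coding sequence, all at 0, were dropped. Transcripts were summed per symbol, of which 51626 resulted, 104 of them with several gene identifiers. Tables were made with numpy 2.4.6 and pandas 2.3.3 in Python 3.11.15 and figures with matplotlib 3.10.9, and the formulas were tested on simulated data.

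The members and lists were chosen with earlier results of these data known. Named are the 20 highest genes, the 15 with the largest SD of log2(FPKM + 1) at a mean of at least 10 FPKM, the 10 with the smallest coefficient of variation at 50 FPKM or more, and members of 40 lists (404 genes) and 14 pairs, with those among the highest 3 of each described list. Several list genes, which stay in the counts and medians of their lists, and 2 of the 16 pairs planned are not reported here. Symbols of unnamed genes and clones were left out of these ranks. Genes of the interval on chromosome 8, Gm20388, Gm49450, Tuba1a, Tuba1b, Gng2, Adgrl2, B3gat1, Luc7l2 and the transcripts of Mbp and Gria2 were chosen after their values were seen. Alternatives were the single highest transcript, median-ratio rescaling, other thresholds and pseudocounts, leaving out each library and, added after seeing the data, protein-coding transcripts only.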

Additional observations from a re-analysis of the deposited data

Results flagged for a closer look

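Of 330 values given for libraries, 275 of them gene levels, 17 had one library far from the other 3, by a gap above Dixon's 95% critical value, where chance flags about 1 in 20 groups. Library 2 was the odd one in 8 of these, library 1 in 6, library 4 in 2 and library 3 in 1. In library 2, Xist stood at 216.6 FPKM and Kdm5c at 23.6 FPKM, with the mean log2 level of the sex-linked list at 2.89. Marcksl1 at 782 FPKM was also highest there, as were Col3a1 at 0.723 FPKM, Ttr at 0.633 FPKM, Neurog1 at 0.0332 FPKM and the mean log2 level of meningeal genes at 0.64. In library 1, Dlx1 was highest at 41.4 FPKM and Neurod1 at 18.2 FPKM, and Jun was lowest at 7.96 FPKM. The remaining values were those of genes near 0: Pvalb at 0.110, Kdm5d at 0.0573 and En2 at 0.0148 FPKM in library 1, Vip at 0.694 FPKM in library 3, and Hbb-y at 0.0799 and Hba-x at 0.0632 FPKM in library 4.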

How the results depend on the processing

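The number of genes at 1 FPKM or more stayed within 12193 to 14199 and the early partner was higher throughout in 9 to 11 of 14 pairs under every alternative. The share of the 100 most abundant genes was 15.7% as a mean and became 18.4% with the single highest transcript and 16.9% with protein-coding transcripts only. The median coefficient of variation was 10.2% and became 11.97% and 10.6% under those settings, 8.49% at a mean of at least 5 FPKM and 14.1% at 0.1 FPKM. Without each library in turn it was 9.55% to 9.75%. These values rest on 3 libraries, and the cause of the difference was not tested. Pair ratios changed sign in 2 cases: Slc12a2 over Slc12a5 to 0.70 and Map1b over Map2 to 0.68, both with the single highest transcript; the cause was not tested. By more than the spread between libraries, 6 other pair ratios moved with the single highest transcript and 4 with protein-coding transcripts only. With a pseudocount of 0.1, 5 of the 14 pair ratios moved, and with a pseudocount of 5, 6 did. Of 40 list medians, 18 moved by more than that spread with the single highest transcript, 8 with protein-coding transcripts only and 1 with rescaling. Leaving out a library moved a list median in 10 cases and not in 150. Depth is unknown, so values under 1 FPKM have no stated error beyond the spread of 4 libraries. No paired analysis was possible because a single group was described and no test was made.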

Other observations

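Noncoding RNAs were rare among the abundant genes. Annotated as other than protein-coding, 7 genes reached 100 FPKM, and these were picked out after their values were seen. The imprinted neighbours Rian and Meg3 on chromosome 12 led them, Rian at 359, 348, 432 and 476 FPKM and Meg3 at 331, 305, 355 and 426 FPKM, each lower in libraries 1 and 2. Miat, a nuclear RNA of neurons, was at 165 ± 5.58 FPKM (SD, n = 4), Gas5, a host of small nucleolar RNAs, at 151 ± 10.7 FPKM and the nuclear Malat1 at 107 ± 12.7 FPKM. An unnamed long intergenic gene and Cct6a, at 183 FPKM, were the others. The type of a symbol was taken from its first annotated transcript. The symbol Cct6a belongs to a chaperonin subunit, so this label does not show that its level is that of a noncoding RNA.

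Promoter CG content differed between the lists as well as between levels. In windows of 300 bases the median number of CG dinucleotides was 3 for astrocyte genes (8 promoters), 2 for red blood cell genes (7), 5 for microglia (8) and 5 for myelinating oligodendrocytes (7). It was 23 for radial glia (9), 24 for intermediate progenitors (6), 25.5 for dividing cells (10) and 24 for presynaptic genes (11), beside 14 over all 13829 promoters. The lists did not follow their levels throughout: the median was 21.5 for midbrain and hindbrain genes (6), a list with a median level of 0, 44.5 for Cajal-Retzius genes (4) and 14.5 for the abundant genes of newborn and migrating neurons (8). These are few promoters per list and were read after the levels, so they are values only.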
